A study of Mus musculus with 18 samples.

Results

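The 6 genes described here, Mrgprd, Mrgpra3, Mrgprb4, Mrgprb5, Mrgprx1 and Mrgpre, encode Mas-related G protein–coupled receptors of nonpeptidergic sensory neurons. They were taken by gene symbol from a table of 36737 genes, and each symbol matched 1 row. Bulk RNA-seq had been done on L3–L5 dorsal root ganglia (DRG) of adult CD1 mice, an outbred stock, with 1 library per mouse and 6 mice in each group, of which 3 were male and 3 female. The groups were sham surgery (Sham), tibial fracture with vehicle (Fracture), and tibial fracture with the lipid mediator Protectin DX (Fracture+PDX). Fracture and Fracture+PDX ganglia were taken on day 3 after the fracture, a model of postoperative pain in which a pin is placed in the tibia of 1 leg. No transgene, deletion or Cre allele was listed for any mouse. The day of the sham samples and the PDX dose of these mice were not given in the sources used here.

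Mas-related receptors mark classes of small-diameter nociceptors and itch neurons, which are grouped as nonpeptidergic although the Mrgpra3 neurons also carry CGRP. Mrgprd is the receptor for β-alanine and defines the largest of these classes, whose endings lie in the outer epidermis. Mrgpra3 responds to chloroquine and mouse Mrgprx1, long known as MrgprC11, to the peptide BAM8-22, and the neurons that carry them drive itch. Mrgprb4 marks neurons that innervate hairy skin and respond to gentle stroking, Mrgprb5 is its close relative, and Mrgpre is an orphan receptor. The transcription factor Runx1 is required for the expression of most of these receptors. In whole ganglia, fewer cells of a type and less RNA per cell cannot be told apart.

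All 6 genes lie on chromosome 7 of mm10. Mrgpra3 (chr7:47588950-47601372), Mrgprx1 (chr7:48020971-48027597), Mrgprb5 (chr7:48167983-48169019) and Mrgprb4 (chr7:48198070-48199288) sit on the minus strand within a cluster of 25 family rows that spans 1.5 Mb. Mrgpre (chr7:143778363-143784500, minus strand) and Mrgprd (chr7:145314835-145324086, plus strand) lie far outside that cluster. Mrgprb4 and Mrgprb5 each have 1 exon that holds the whole coding sequence, whereas the other 4 genes have 2 exons, and in Mrgprd, Mrgprx1 and Mrgpre 1 of these holds the whole coding sequence. Mrgpre overlaps the annotated miRNA gene Gm22064 on the other strand, and the other 5 overlap no annotated gene.

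Libraries held 63235040 to 82824942 counts assigned to genes. The 10 pan-neuronal genes examined (Tubb3, Uchl1 and the like) were present in every group, and their summed level ran from 8700 to 9420 CPM (counts scaled to a common library size) in Sham and from 9750 to 9980 CPM in Fracture, so those groups did not overlap. Genes of other tissues also differed between groups or libraries. Placental genes (8 of 8 detected) summed to 183 to 583 CPM in Sham and 29.6 to 282 CPM in Fracture. In Fracture+PDX they summed to 28.2 to 144 CPM, which did not overlap Sham. Macrophage genes summed to 96.7 to 111 CPM in Sham against 71 to 94.9 CPM in Fracture without overlap. All 8 of their fitted changes were below 0, where 50.7% of all genes had one above 0. Of the 8, 2 were called, beside 2.92% of all genes. Skeletal muscle genes ranged from 13.5 to 1130 CPM between libraries. Neutrophil genes had medians of 161 CPM in Sham, 93.6 CPM in Fracture and 193 CPM in Fracture+PDX, and these groups overlapped. The part of these signals in the receptor values was not tested.

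Among the 6 receptors, Mrgprd was by far the most abundant per length of transcript. Its level was 56.6 ± 8.21 FPKM (SD, n = 18), a unit that scales fragments to transcript length and library depth, and it made up 55.1% to 68.8% of the summed FPKM of the 6 genes in a library. Mrgpra3 followed at 9.38 ± 2.24 FPKM, Mrgprx1 at 8.17 ± 2.97, Mrgprb5 at 8.04 ± 3.87 and Mrgpre at 7.01 ± 0.561. Mrgprb4 had the lowest mean, 1.35 ± 1.19 FPKM. Mrgprd was above Mrgpra3 and Mrgpre above Mrgprb4 in 18 of 18 libraries, but the neighbours between them did not differ beyond their spread. Mrgprb4 was the lowest of the 6 in 15 libraries, and Mrgprb5 was in the other 3. Mrgpra3 exceeded Mrgprx1 in 13 libraries, Mrgprx1 exceeded Mrgprb5 in 10, and Mrgprb5 exceeded Mrgpre in 10. The coefficient of variation over all libraries separated the genes further. It was 8% for Mrgpre, 14.5% for Mrgprd and 23.9% for Mrgpra3, but 36.4% for Mrgprx1, 48.1% for Mrgprb5 and 87.8% for Mrgprb4.

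**Figure D1:**
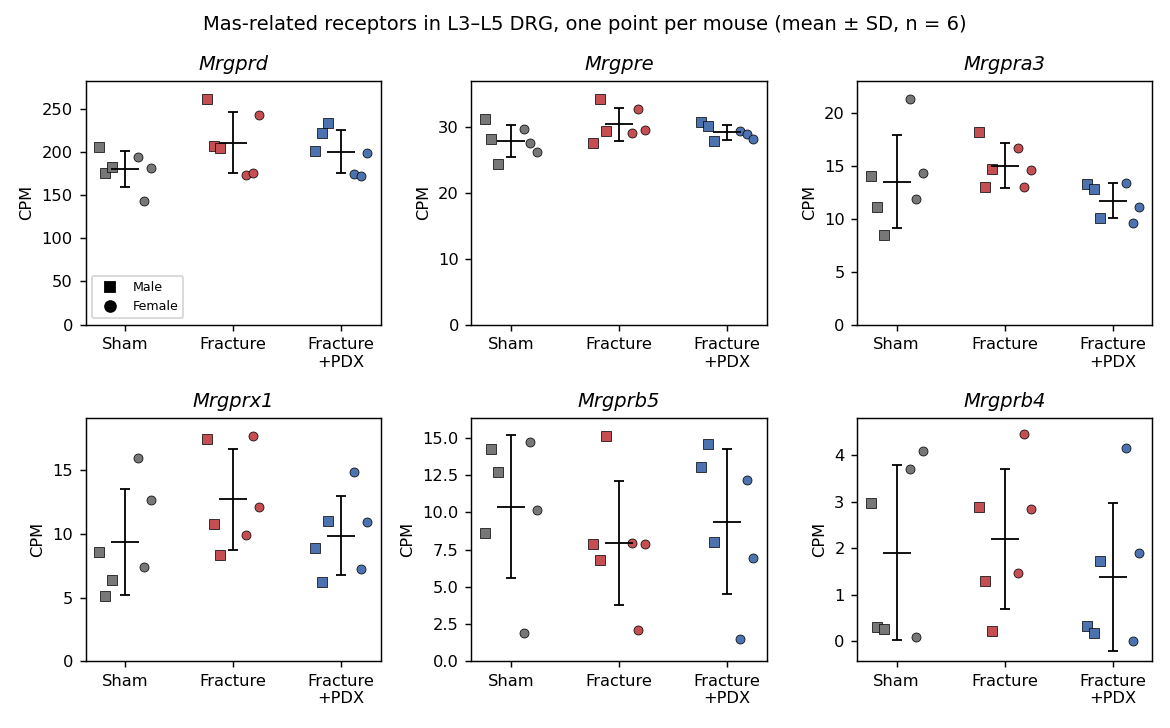
CPM of each of the 6 receptors by group, with 1 point per mouse (squares, male; circles, female), a short line for the mean and bars for the SD of n = 6. The 3 groups overlap in every panel, and within each group Mrgprb4 and Mrgprb5 are scattered far more widely than Mrgprd and Mrgpre.

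The first comparison asked what tibial fracture did to the receptor transcripts, Fracture against Sham. None of the 6 receptors was called at an adjusted p under 0.05 (edgeR quasi-likelihood test with Benjamini-Hochberg adjustment over 20659 genes), where 2.92% of all genes tested were called. At an unadjusted p under 0.05 the count was also 0 of 6, against 18.5% of all genes. Mrgprd had an unadjusted p of 0.0193 with DESeq2, 0.0106 with mouse number as a block and 0.0346 with all 18 libraries in the edgeR fit (adjusted p = 0.134, 0.16 and 0.223). All 6 passed the filter on low counts, 5 of the 6 fitted changes were above 0, beside 50.7% of all genes tested, and the median was 0.20 on the log2 scale.

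Mrgprd, the β-alanine receptor, ran from 143 to 205 CPM in Sham (median 182) and from 173 to 261 CPM in Fracture (median 206). Fracture mice reached higher, and 3 of 6 lay above every Sham mouse, but the groups overlapped. The fitted log2 change was 0.23 with a 95% confidence interval of −0.01 to 0.47 (adjusted p = 0.301 by edgeR), and the exact permutation test of the log2 CPM values, two-sided, gave p = 0.113. Without Fracture female 3 the change was 0.15. Mrgpre, the orphan receptor, ran from 24.3 to 31.2 CPM (median 27.9) in Sham and from 27.5 to 34.2 CPM (median 29.5) in Fracture. Its fitted log2 change was 0.13 (−0.02 to 0.27, adjusted p = 0.344 by edgeR), of the same size as the median log2 change of the pan-neuronal list, 0.13. When libraries were scaled by the pan-neuronal genes instead, the log2 changes became 0.10 for Mrgprd and 0.0055 for Mrgpre.

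The receptors of the itch classes varied more. Mrgprx1, the BAM8-22 receptor, ran from 5.11 to 16 CPM in Sham (median 8) and from 8.38 to 17.7 CPM in Fracture (median 11.4). All 6 Fracture mice lay above the Sham median, yet the 95% interval of the log2 change of 0.50 ran from −0.09 to 1.1 (adjusted p = 0.36 by edgeR). The change was 0.31 without Fracture male 1, 0.87 in males alone and 0.14 in females alone. Mrgpra3, the chloroquine receptor, ran from 8.42 to 21.3 CPM in Sham and from 13 to 18.2 CPM in Fracture (medians 13 and 14.6), so the Fracture mice lay inside the range of the Sham mice. Its log2 change was 0.18 (−0.21 to 0.57), and 0.07 to 0.33 when 1 library was left out (highest without Sham female 1). Mrgprb4 ran from 0.087 to 4.1 CPM in Sham (median 1.64) and from 0.219 to 4.45 CPM in Fracture (median 2.16). Mrgprb5 ran from 1.9 to 14.7 CPM in Sham (median 11.4) and from 2.13 to 15.2 CPM in Fracture (median 7.87). The groups overlapped almost fully for both genes. Their log2 changes were 0.24 and −0.41, with intervals of −1.76 to 2.23 and −1.49 to 0.67, so only very large changes of these genes could have been detected. When 1 library was left out, the change of Mrgprb4 lay between −0.18 (without Fracture male 1) and 0.98 and turned in sign, and that of Mrgprb5 lay between −0.63 and −0.15, the latter without Sham female 2.

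Among other genes of the Mrgprd class, Agtr1a, an angiotensin receptor, rose. It ran from 9.75 to 13.6 CPM in Sham and from 14.2 to 16.7 CPM in Fracture, with no overlap and a log2 change of 0.36 (adjusted p = 0.0285 by edgeR). It was the only 1 of the 16 genes listed for this class that was called, beside 2.92% of all genes, a share at which 1 call in such a short list is no result about the class, and the median log2 change of the class was 0.08, beside 0.0021 for all genes tested. Ret, the tyrosine kinase receptor that nonpeptidergic neurons keep, rose by 0.13 (adjusted p = 0.0283 by edgeR) and was the only gene called among 10 lineage genes, nearly all transcription factors, which is likewise a single call. Runx1 itself had a log2 change of 0.14 (adjusted p = 0.169 by edgeR). Of 19 signalling partners, Scn9a, a voltage-gated sodium channel, and Arrb1, a β-arrestin, rose by 0.16 and 0.13 (adjusted p = 0.0451 and 0.0484 by edgeR). No gene of the Mrgpra3 class (10 tested), of the Nppb and Sst class of itch neurons (8 tested) or of the peptide ligand precursors (4 of 5 tested) was called. In the Nppb and Sst class, however, 6 of 8 genes had an unadjusted p under 0.05, all with changes above 0, beside 18.5% of all genes, and the class median was 0.29. Such a share was not particular to that class. At the same cut 9 of 10 pan-neuronal and 6 of 10 lineage genes were higher, with medians of 0.13 and 0.11. In the Mrgprd class 3 of 16 were. Other neuronal lists held called genes as well, 3 of 10 pan-neuronal, 2 of 7 peptidergic nociceptor and 2 of 8 large-diameter neuron genes, all higher in Fracture, beside the same 2.92%. The rises of Ret, Scn9a and Arrb1 were close in size to the pan-neuronal median of 0.13. By comparison, 6 of 11 axonal injury genes tested rose, among them Atf3, an injury-induced transcription factor, with a log2 change of 1.65 (adjusted p = 0.0141 by edgeR).

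The second comparison asked whether PDX changed the receptors after fracture, Fracture+PDX against Fracture. No gene in the table was called by edgeR at an adjusted p under 0.05 (0 of 20562, or 0%), 1113 genes (5.41%) had an unadjusted p under 0.05, and DESeq2 called 10 genes. Among the receptors, 1 of 6 had an unadjusted p under 0.05. That gene was Mrgpra3, which ran from 13 to 18.2 CPM in Fracture (median 14.6) and from 9.56 to 13.3 CPM in Fracture+PDX (median 12). All 6 PDX-treated mice lay below the Fracture median and 4 lay below every Fracture mouse, so the groups overlapped only narrowly. The fitted log2 change was −0.36 (−0.59 to −0.13), with an unadjusted p of 0.00494 and an adjusted p of 0.811 by edgeR. The exact permutation test, two-sided, gave p = 0.0173, unadjusted and 1 of 18 such tests of the receptors. The change lay between −0.42 and −0.30 when any 1 library was left out. Neutrophil genes were higher in Fracture+PDX for 7 of 7 genes at an unadjusted p under 0.05, beside 2.86% of all genes (median log2 difference 1.14, none called). Their median log2 difference from Sham was −0.81 in Fracture and 0.31 in Fracture+PDX. The part of these genes in the Mrgpra3 value was not tested.

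The other receptors differed less in relation to their spread. Mrgprx1 ran from 6.24 to 14.9 CPM in Fracture+PDX (median 9.93) and its log2 change was −0.38 (−0.92 to 0.17), which became −0.21 without Fracture male 1. Mrgprd ran from 172 to 233 CPM (median 200) and Mrgpre from 27.9 to 30.7 CPM (median 29.1), with log2 changes of −0.08 (−0.29 to 0.14) and −0.06 (−0.18 to 0.06). These 2 intervals were the narrowest of the 6. The change of Mrgprd was 0.0063 without Fracture female 3, and that of Mrgpre −0.020 without Fracture male 2. Mrgprb4 ran from 0 to 4.15 CPM (median 1.03) and Mrgprb5 from 1.49 to 14.6 CPM (median 10.1) in Fracture+PDX, with log2 changes of −0.75 (−2.90 to 1.39) and 0.23 (−0.87 to 1.33). The former lay between −1.29 (without Fracture+PDX male 3) and −0.33 (without Fracture male 1) when 1 library was left out. Trpa1, the irritant channel through which Mrgpra3 and Mrgprx1 excite itch neurons, had a log2 change of −0.26 (unadjusted p = 0.00192, adjusted p = 0.811 by edgeR), with 36.1 to 47.2 CPM in Fracture+PDX against 45.5 to 55.8 CPM in Fracture. P2rx3, an ATP-gated channel of nonpeptidergic neurons, had a log2 change of 0.05 (adjusted p = 0.98 by edgeR).

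The last group comparison set Fracture+PDX against Sham. It shares its mice with the first 2 comparisons, so its values are not independent of theirs. No receptor was called, beside 4.5% of 20574 genes. The log2 changes were 0.15 for Mrgprd (−0.02 to 0.32, adjusted p = 0.342 by edgeR), 0.07 for Mrgpre (−0.06 to 0.19), 0.13 for Mrgprx1 (−0.41 to 0.66), −0.18 for Mrgpra3 (−0.58 to 0.22), −0.18 for Mrgprb5 (−1.38 to 1.01) and −0.52 for Mrgprb4 (−3.05 to 2.02). When 1 library was left out, Mrgprx1 lay between 0.011 (without Fracture+PDX male 3) and 0.27 (without Sham female 1), Mrgpra3 between −0.29 (without Sham male 3) and −0.028 (without Sham female 1) and Mrgpre between 0.026 (without Sham male 3) and 0.11 (without Sham male 1), and the changes of Mrgprb4 and Mrgprb5 turned in sign. Agtr1a rose by 0.34 (adjusted p = 0.0232 by edgeR) and Ret by 0.20 (adjusted p = 0.00251 by edgeR), and Cbfb, the partner subunit of Runx proteins, rose by 0.10 (adjusted p = 0.0455 by edgeR). Arrb1 rose by 0.17 (adjusted p = 0.00993 by edgeR). Nts, the neurotensin precursor, rose by 2.09 (adjusted p = 0.029 by edgeR) and is listed both for the Nppb and Sst class and among the axonal injury genes. The calls were 1 of 16 in the Mrgprd class, 2 of 10 lineage genes, 1 of 19 signalling partners and 1 of 8 in the Nppb and Sst class. These stand beside the same 4.5%. Of 11 axonal injury genes tested, 8 rose. The pan-neuronal list had a median of 0.15 in this comparison, and 5 of its 10 genes rose. Of the 8 placental genes, 7 fell here and 2 in Fracture against Sham, and their part in the receptor values was not tested.

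**Figure D2:**
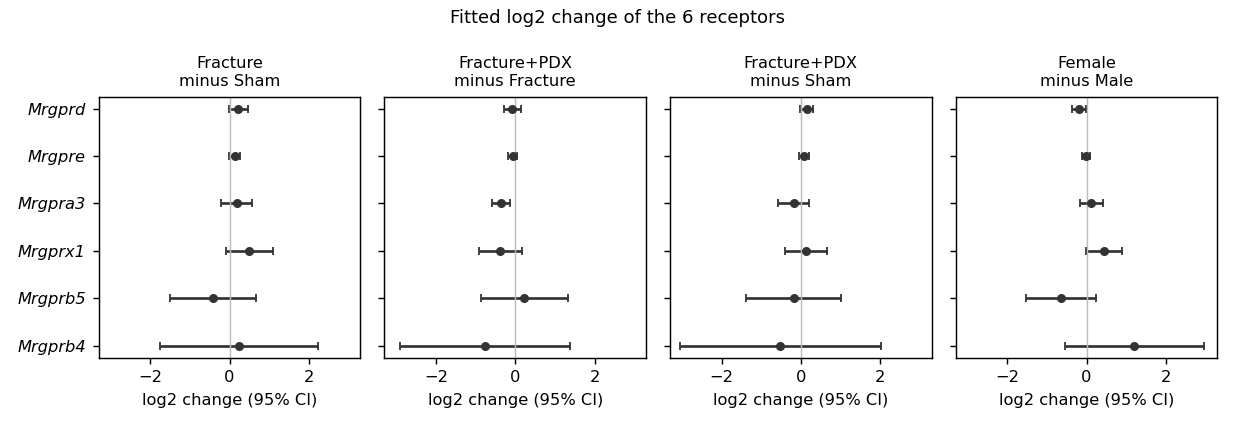
Fitted log2 change of each receptor (point) with its 95% confidence interval (bar) in the 3 group comparisons and between the sexes. The intervals are narrow for Mrgprd and Mrgpre and widest for Mrgprb4, and only Mrgpra3 under PDX and Mrgprd between the sexes have intervals that leave out 0, neither of them called after adjustment.

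Mrgprb4 and Mrgprb5 differed between mice in a way that did not follow the groups. In Mrgprb5 counts, 3 libraries stood at 1.49 to 2.13 CPM and the other 15 at 6.83 to 15.2 CPM. The gap between them was 3.21-fold, and no other step in the ordered values exceeded 1.28-fold. The 3 low libraries were 1 of each group, Sham female 1, Fracture female 2 and Fracture+PDX female 1. In Mrgprb4 counts, 7 libraries stood at 0 to 0.323 CPM and the other 11 at 1.29 to 4.45 CPM. Of those 7 libraries, 3 were from Sham, 1 from Fracture and 3 from Fracture+PDX, and 5 were from males and 2 from females.

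The genes went in opposite directions between stretches of libraries, though not within the middle stretch. The 7 libraries lowest in Mrgprb4 were the 7 highest in Mrgprb5, at 12.2 to 15.2 CPM. The 3 libraries lowest in Mrgprb5 were 3 of the 4 highest in Mrgprb4, at 3.7 to 4.45 CPM. In the libraries between, Mrgprb5 ran from 6.83 to 10.15 CPM, and Mrgprb4 did not fall as Mrgprb5 rose. Mrgprb4 was at 1.29 CPM at the lowest of these Mrgprb5 values and at 4.1 CPM at the highest. Of all reads counted to either gene, the share of Mrgprb4 was 73.6% in Fracture+PDX female 1 (95% Wilson interval 69.2% to 77.6%, 417 counts) and 66.0% in Sham female 1 (61.4% to 70.3%, 441 counts). It was 0.587% in Sham female 2 (0.285% to 1.21%, 1192 counts). In Fracture+PDX female 2 it was 0 of 893 counts, with a Wilson upper limit of 0.428%, and by the limit of 3 counts a count of 0 allows a share of up to 0.336%. The intervals and this limit cover counting error only. Shares ran from 0.587% to 66.0% in Sham, from 1.42% to 67.6% in Fracture and from 0% to 73.6% in Fracture+PDX, so low and high values were found in each group. Over 18 libraries, log2 CPM of Mrgprb4 and Mrgprb5 had a Pearson r of −0.68 and a Spearman rho of −0.78, given as a description of libraries that form separate stretches.

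**Figure D3:**
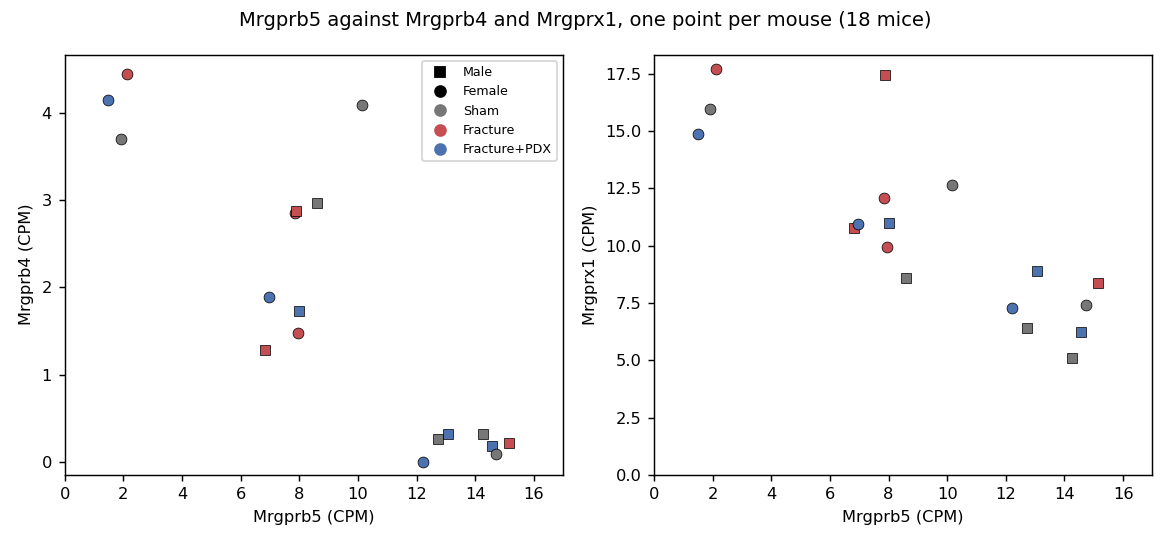
CPM of Mrgprb4 (left) and Mrgprx1 (right) against Mrgprb5, with 1 point per mouse, coloured by group and shaped by sex. Libraries of all 3 groups are found at the upper left, in the middle and at the lower right of both panels, and the 7 libraries with Mrgprb4 at or below 0.323 CPM have the highest Mrgprb5.

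The reference sequences of Mrgprb4 and Mrgprb5 are shown because their likeness bears on how reads can be told apart. The coding sequences of Mrgprb4 and Mrgprb5 were identical at 828 of 961 aligned bases (86.2%). A stretch of 150 coding bases is printed for each from the GENCODE M21 transcripts (mm10), 5′ to 3′ on the minus strand, with the 16 bases that differ in capitals. It covers chr7:48198963-48199112 in the single exon of Mrgprb4 and chr7:48168767-48168916 in that of Mrgprb5.
Mrgprb4: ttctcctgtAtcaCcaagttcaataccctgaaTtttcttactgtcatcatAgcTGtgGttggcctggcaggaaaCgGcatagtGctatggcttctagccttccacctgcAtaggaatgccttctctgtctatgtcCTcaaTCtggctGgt
Mrgprb5: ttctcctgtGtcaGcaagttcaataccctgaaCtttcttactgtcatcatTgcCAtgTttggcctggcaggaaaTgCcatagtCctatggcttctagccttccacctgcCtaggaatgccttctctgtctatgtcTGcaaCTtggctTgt
Differences of this density left few windows in common. Of the 50-base windows of the Mrgprb4 transcript 1.45% were found in transcripts of other genes, 8 of them in Mrgprb5, and of those of Mrgprb5 0.81%. The same share was 0% for Mrgprd, 0.757% for Mrgpre, 5.84% for Mrgprx1 and 7.14% for Mrgpra3. How reads that match several genes had been counted was not given in the sources used here.

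The sequences around the starts of Mrgprb4 and Mrgprb5 were also alike. The 250 bases before their RefSeq starts (GRCm38.p6) aligned without gaps, 82.4% of them identical, but 110 of these bases in Mrgprb4 and 34 in Mrgprb5 lie inside the longer GENCODE transcripts. Over the 140 aligned bases that lie upstream of both transcripts the identity was 78.6%. These bases are printed because they lie upstream of 2 genes whose levels went in opposite directions between the stretches of libraries described above. They are given 5′ to 3′ on the minus strand, with the 30 bases that differ in capitals. They cover chr7:48199289-48199428, which ends at the GENCODE start of Mrgprb4, and chr7:48169096-48169235, which lies 216 to 77 bases before that of Mrgprb5. For Mrgpra2a and Mrgpra2b the 250 bases before the RefSeq start were identical at 250 of 250.
Mrgprb4: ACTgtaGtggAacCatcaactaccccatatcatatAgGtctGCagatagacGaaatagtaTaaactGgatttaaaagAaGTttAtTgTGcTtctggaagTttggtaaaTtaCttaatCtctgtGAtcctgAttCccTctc
Mrgprb5: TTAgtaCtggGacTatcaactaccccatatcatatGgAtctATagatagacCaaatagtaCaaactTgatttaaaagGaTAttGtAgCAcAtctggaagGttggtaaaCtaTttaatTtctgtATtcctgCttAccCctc
The letters TGTGGT and TGCGGT, forms of the core motif of Runx factors, were searched on both strands in the 250 bases before the RefSeq start of each receptor gene, which for Mrgprb4 and Mrgprb5 include the transcribed bases given above. Neither occurred in the windows of Mrgprd, Mrgprb4, Mrgprb5, Mrgprx1 and Mrgpre, and 18.6% of 32851 promoters of this length held at least 1 of them. The promoter of Mrgpra3 was not analysed here.

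Other genes of the cluster moved with this pair. Mrgprx1 varied in the direction of Mrgprb4 (r = 0.79, n = 18) and against that of Mrgprb5 (r = −0.77), and it was highest, at 14.9 to 17.7 CPM, in the 3 libraries with least Mrgprb5 and in Fracture male 1. Mrgpra2a and Mrgpra2b had r = 0.865 and 0.863 with Mrgprb4 and r = −0.83 and −0.81 with Mrgprb5. These 2 receptor genes are identical at 994 of 996 coding bases and share 1037 of their 50-base windows, so their counts cannot be separated with certainty. They ran from 0.218 to 5.98 CPM and from 0.307 to 10.5 CPM, a 27.5-fold and a 34.1-fold range. The Mrgpra2b row of the deposited table spans chr7:47463806-47528862, further than the GENCODE M21 gene, which ends at 47489586, and it overlaps the row of Gm7255 (chr7:47502456-47531784) on the same strand, so the counted model of Mrgpra2b was not the one compared by sequence. Among pseudogenes, Mrgpra14 and Gm7255 followed Mrgprb5 (r = 0.80 and 0.72), and Gm5734 followed Mrgprb4 (r = 0.94). Gm5734 had no count in 4 libraries.

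These relations were more frequent inside the cluster than elsewhere. Of 21339 other genes compared with Mrgprb5, 25 had an r of 0.7 or more in size, and 6 of these lay in the cluster. That was 31.6% of the 19 other cluster genes compared and 0.0891% of genes elsewhere. The 6 include Mrgpra2a and Mrgpra2b, whose counts cannot be separated with certainty, and Gm7255, whose row overlaps that of Mrgpra2b. They are therefore not 6 separate measurements. Genes on either side of the cluster had r from −0.63 (Sergef) to 0.51 (Dbp). The 19 of the 25 outside the cluster lay on other chromosomes, Fabp5 having the highest r of them, 0.79, and these gene names were chosen after their values were seen. Within the cluster the relation was uneven. Mrgpra3 had r = −0.40 with Mrgprb5 and 0.535 with Mrgprb4, and Mrgprx3-ps had 0.34 and 0.08. Outside it, Mrgprd and Mrgpre had r = 0.05 and −0.34 with Mrgprb5. All these values come from the same 18 libraries and carry no test.

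**Figure D4:**
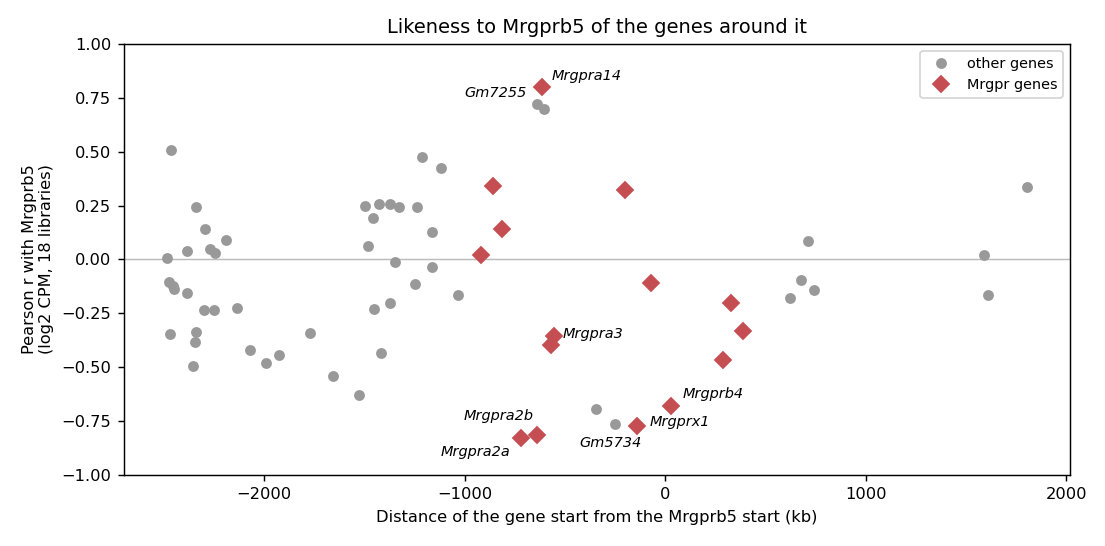
Pearson r of log2 CPM with Mrgprb5 over 18 libraries for each expressed gene (point) by the distance of its start from that of Mrgprb5 in kb, with Mrgpr genes as red diamonds. Values reach −0.83 for Mrgpra2a and 0.80 for Mrgpra14 inside the cluster, while among the plotted genes outside the cluster the values lie between −0.63 and 0.51.

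The design also allowed a comparison of the sexes, 9 females against 9 males with the group in the model. No receptor was called, beside 0.291% of 21340 genes, and 1 of 6 had an unadjusted p under 0.05, beside 10.1%. That gene was Mrgprd, which ran in females from 143 to 243 CPM (median 175) against 176 to 261 CPM in males (median 205). The fitted log2 change was −0.19 (−0.36 to −0.02), with an unadjusted p of 0.0269 and an adjusted p of 0.406 by edgeR, and an exact permutation of sex within groups, two-sided, gave p = 0.034. Females had the lower mean in each of the 3 groups. In Fracture+PDX the sexes were only narrowly apart, at 172 to 199 CPM in females against 201 to 233 CPM in males. An exact permutation test of 3 mice against 3 cannot give a p below 0.1, so this separation alone shows no difference. Mrgprx1 and Mrgprb4 had log2 changes of 0.43 (−0.02 to 0.88) and 1.20 (−0.55 to 2.95), higher in females, and Mrgprb5 had −0.64 (−1.52 to 0.23). The intervals of all 3 included 0. The 3 libraries lowest in Mrgprb5, all female, and the 7 lowest in Mrgprb4, 5 of them male, enter these values. When 1 library was left out, Mrgprb5 lay between −0.83 and −0.50 and Mrgprb4 between 0.89 and 1.70 (lowest without Fracture+PDX female 1 and highest without Sham male 1).

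The Mrgprd class had the same direction for most genes. Of its 16 genes, 15 had a fitted change below 0 in females, where 50.4% of all genes had one above 0, 11 had an unadjusted p under 0.05 in that direction, beside 5.24% of all genes tested, and 1 was called. That gene was Gfra2, the neurturin co-receptor, with 104 to 143 CPM in females against 138 to 173 CPM in males and a log2 change of −0.26 (adjusted p = 0.0188 by edgeR). Without Mrgprd itself the counts were 14 and 10 of 15. The class median was −0.12, and the direction was not particular to it. The C-low-threshold mechanoreceptor list had a median of −0.17 with 6 of 6 genes below 0, 2 of them at an unadjusted p under 0.05, and the Nppb and Sst class one of −0.07 with 6 of 8 below 0. The pan-neuronal list had a median of −0.01 and the Mrgpra3 class one of 0.07. Among lists of other cells, mast cell, macrophage, skeletal muscle and satellite glia genes had medians of 0.28, 0.11, 1.22 and 0.03. Red blood cell, placental, neutrophil and Schwann cell genes had −0.17, −0.13, −0.12 and −0.07. The part of these signals in the class values was not tested. P2rx3 had a log2 change of −0.15 (adjusted p = 0.174 by edgeR) and Runx1 one of −0.14 (adjusted p = 0.334 by edgeR). The genes of a class share cells and are not independent.

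The effects of fracture and of PDX were also compared between the sexes. The interaction of sex with fracture and that of sex with PDX were called for 0 of 6 receptors, with adjusted p from 0.764 to 0.998 by edgeR. For the other genes of the Mrgprd class, the interaction with PDX was below 0 (a lower PDX effect in females) for 13 of 15, where 50.4% of all genes had one above 0, and 6 had an unadjusted p under 0.05, beside 1.78% of all genes in that direction. None was called (adjusted p = 0.998 by edgeR for each), and the median was −0.24, beside −0.16 for the C-low-threshold mechanoreceptor list, −0.28 for the Schwann cell list and 0.0005 for the pan-neuronal list. Mrgprd itself had −0.08 (−0.54 to 0.37). Among the receptors, the largest fitted interactions were those of Mrgprx1 and Mrgpra3 with fracture, −0.73 (−1.86 to 0.41) and −0.56 (−1.28 to 0.16). Among all genes, 0 (0%) and 1 (0.00486%) were called in these models, and that 1, Xntrpc, is named only because of the count and was chosen after its values were seen.

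A relative of the receptors did differ by sex. Mrgprx3-ps (chr7:47309378-47310295, minus strand), annotated as an unprocessed pseudogene of 1 exon, was the second most abundant row of the whole family at 22.0 FPKM on average, above the 5 receptors other than Mrgprd in every library. Females ran from 15.8 to 23.5 CPM and males from 24.2 to 27.3 CPM, so all 9 females lay below all 9 males. The log2 change was −0.42 (−0.53 to −0.31, adjusted p = 0.00029 by edgeR), and the exact permutation within groups gave p = 0.00025, the smallest that design allows. The sexes were separate in each of the 3 groups, by −0.47 in Sham, −0.21 in Fracture and −0.58 in Fracture+PDX on the log2 CPM scale. The interactions of sex with fracture and with PDX had unadjusted p of 0.0254 and 0.00216 and adjusted p of 0.635 and 0.998 by edgeR. Of its 50-base windows, 2.99% were shared with other transcripts. This row was chosen after its values were seen.

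**Figure D5:**
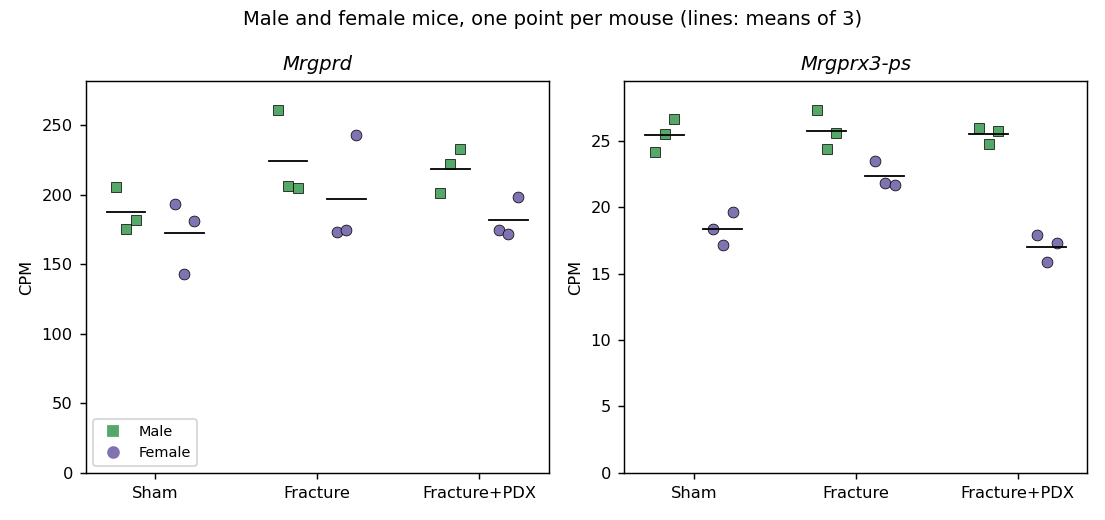
CPM of Mrgprd and of the pseudogene row Mrgprx3-ps in male (squares) and female (circles) mice of each group, with 1 point per mouse and lines at the means of 3. Females lie below males for Mrgprx3-ps without overlap in all 3 groups, whereas for Mrgprd the sexes overlap in Sham and Fracture.

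Of the 25 family rows that are not among the 6 receptors, 18 reached 10 counts in at least 1 library. Besides Mrgprx3-ps, Mrgpra2a and Mrgpra2b, Mrgprf, an orphan receptor, was detected throughout at 1.91 to 4.05 FPKM. It ran from 6.95 to 9.9 CPM in Sham, 5.74 to 7.61 CPM in Fracture and 4.75 to 7.7 CPM in Fracture+PDX, with log2 changes against Sham of −0.28 and −0.39 (adjusted p = 0.165 and 0.111 by edgeR). The remaining rows, Mas1, Mrgprh, Mrgpra9, Mrgpra1, Mrgpra14, Mrgprc1-ps, Mrgprc7-ps, Mrgprc2-ps, Mrgpra4, Mrgprb12-ps, Mrgprb1, Mrgprx2, Mrgprb2 and Mrgprg, stayed at or below 1.18 FPKM in every library. Mrgprb2, the receptor of mast cells, was among them at 0 to 0.26 FPKM. At least 15 of the 18 passed the filter in each group comparison, and none was called. Mrgprg, a row of few counts, had the lowest p of them in Fracture against Sham. It had 8 to 81 counts in Sham (0.1 to 1.03 CPM) and 2 to 25 in Fracture (0.0255 to 0.328 CPM), so the groups overlapped, with a log2 change of −2.05 (−3.41 to −0.68, unadjusted p = 0.00643, adjusted p = 0.102 by edgeR). Unadjusted p under 0.05 were also found for Mrgprf in both comparisons with Sham, for Mrgprx3-ps in Fracture against Sham and in Fracture+PDX against Fracture (log2 changes of 0.15 and −0.20), for Mrgprb2 in the latter and for Mrgprc2-ps in Fracture+PDX against Sham.

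Mrgprc7-ps had counts in few libraries. It was counted in 5 of 18 libraries with 27 counts in all, and 21 of these were in the 3 libraries with least Mrgprb5.

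The genes whose levels were most like those of Mrgprd across mice were sought among 15796 genes by the correlation of deviations from the mean of each group and sex (n = 18). Tefm, Tmem129, Mfap2, 5430416N02Rik and Rab8a came first, with r from 0.83 to 0.88. For Mrgpra3 they were Cyb5b, Lhfpl2, Spats2l, Tmem200a and Aaas, with r from 0.85 to 0.92. None of these 10 is in the class lists. They were picked as the highest of 15796 values and carry no test. Removing the group and sex means leaves fewer than 18 independent values. The other 15 genes of the Mrgprd class had a median r of 0.17 with Mrgprd (−0.28 to 0.55), beside 0.21 for the pan-neuronal list. For Mrgpra3 and its class the median r was 0.12 over 6 genes, beside 0.16 for the pan-neuronal list.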

How the data were processed

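RNA-seq libraries of L3–L5 DRG were poly(A)-selected, stranded and paired-end (TruSeq Stranded mRNA, NovaSeq), 1 per mouse, 18 in all. The submitters' processing notes name cutadapt 1.10, FastQC, HISAT2 and StringTie with the mm10 build, and the counting program is not given in the sources used here. The deposited table holds raw read counts per gene, made by the authors, and FPKM values, which the authors scaled by transcript length and library depth. Columns named Con were taken as the Sham mice. Raw counts were tested with the edgeR 4.0.16 quasi-likelihood test (R 4.3.3, TMM normalization, filterByExpr with a minimum count of 10, robust), with sex as a covariate on the 12 libraries of a comparison, or with group as a covariate on all 18 libraries for sex. Benjamini-Hochberg adjustment ran across every gene that passed the filter, and a gene was called, and said to rise or fall, at an adjusted p under 0.05. CPM values use TMM-scaled library sizes, log2 CPM for correlations and exact permutation tests a prior count of 2, and FPKM was used to compare levels between genes. The fits were checked on simulated counts.

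The 6 receptors and the gene lists were chosen with earlier results of these data known. Beside the receptors, the rule named family rows with 10 or more counts in a library, called genes of the lists (at most 4 a list), Runx1, Trpa1 and P2rx3, and the 5 genes most like Mrgprd and Mrgpra3 with a mean of 1 CPM or more. Depth was 63235040 to 82824942 counts, and the limit that a count of 0 allows was set at 3 counts. Mouse numbers were not taken as pairs, since same-numbered mice did not all deviate together in any comparison. No library resembled another within counting noise. Exon structures and coding sequences are from GENCODE M21 and promoters from RefSeq, both of the mm10 build (GRCm38). Alternatives were DESeq2 1.42.0, upper-quartile and pan-neuronal scaling, other filters and covariates, a replicate block, limma 3.58.1 on log2(FPKM + 1) and log2(FPKM + 0.1), single sexes, and leaving out each library.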

Additional observations from a re-analysis of the deposited data

Results flagged for a closer look

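Within groups of 6 mice, 72 combinations of gene and group were examined for a single library that stood apart from the other 5, and 6 did. The limit marks about 1 in 20 by chance where values are normally distributed. Rows of few counts are not, so the number found cannot be set against that share. Mas1 was at 0.326 CPM in Sham male 2, where the next Sham library had 0.688 CPM. Mrgpra2b was at 9.48 CPM in Fracture+PDX female 1, where the next library of that group had 3.74 CPM. Mrgprc1-ps was at 0.356 CPM in Fracture+PDX female 2, with the next at 0.781 CPM. The pseudogene row Mrgprc7-ps gave the other 3, at 0.0381 CPM in Sham female 1, 0.178 CPM in Fracture female 2 and 0.0541 CPM in Fracture+PDX female 1, and these 3 mice were the ones with the lowest Mrgprb5. These values rest on 3, 14 and 4 counts. In Sham and Fracture+PDX the other 5 libraries had no count of this row, so that any count in 1 library would have stood apart, and 3 counts is the limit that a count of 0 allows. On this CPM scale none of the 6 receptors had a library that passed the limit, which log2 values need not share. Mrgprb5 was at 1.91 CPM in Sham female 1, where the next Sham library had 8.59 CPM. It was at 1.49 CPM in Fracture+PDX female 1, where the next library of that group had 6.96 CPM.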

How the results depend on the processing

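No receptor was called under any alternative fitted across all genes, with adjusted p from 0.134 upward. The count of called genes moved far more. For Fracture against Sham it was 603, and 1506 with DESeq2, 2775 with pan-neuronal scaling and 213 to 710 when 1 library was left out (lowest without Fracture female 2). For Fracture+PDX against Fracture it was 0, with 10 by DESeq2 and 0 to 1 when 1 library was left out (1 without Fracture+PDX female 3). For Fracture+PDX against Sham it was 925, and 1627 with DESeq2, 3897 with pan-neuronal scaling and 498 to 1008 when 1 library was left out (lowest without Fracture+PDX female 1). Between the sexes it was 62, and 327 with DESeq2, 32 without the group covariate and 24 to 86 when 1 library was left out (lowest without Fracture female 3). DESeq2 called 58 and 8 interactions with fracture and PDX, where edgeR called 0 and 1. The cause of these shifts was not tested. The deviations of mice of the same sex and number had r from −0.141 to 0.26, over 0.1 in 5 of 18 pairs. These included all 3 male pairs of Fracture and Fracture+PDX (0.151 to 0.26), but the female pairs of that comparison had −0.141 to 0.0873. With that number as a replicate block the counts were 118, 0 and 486 in the 3 group comparisons.

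Directions turned for changes whose intervals included 0. For Fracture against Sham, Mrgpra3 had a log2 change of −0.10 (−0.0995) in females alone, and Mrgprb4 ran from −0.18 to 0.98 when 1 library was left out, below 0 without Sham female 2 (−0.02) or Fracture male 1. For Fracture+PDX against Fracture, leaving out 1 library gave −0.11 to 0.0063 for Mrgprd, above 0 without Fracture female 3, and −0.071 to 0.44 for Mrgprb5, below 0 without Fracture+PDX female 2. For Fracture+PDX against Sham, pan-neuronal scaling gave −0.0042 for Mrgprx1 and −0.066 for Mrgpre, males alone gave 0.12 for Mrgpra3 and 0.011 for Mrgprb5, and females alone gave −0.12 for Mrgprx1. Leaving out 1 library gave −1.08 to 0.28 for Mrgprb4 and −0.45 to 0.089 for Mrgprb5, above 0 without Sham male 1 for the former and without Sham female 2 or Fracture+PDX female 1 (0.05) for the latter. Between the sexes, Mrgpre was at 0.019 with pan-neuronal scaling, 0.0049 with limma on log2(FPKM + 1), an alternative chosen after seeing the data, and −0.041 to 0.011 when 1 library was left out. By CPM, which is not scaled by length, Mrgpre took place 2, Mrgpra3 place 3, Mrgprx1 place 4 and Mrgprb5 place 5. Of the 5 genes most like Mrgprd, 4 were kept with Spearman correlation and 1 without removing the sex means, and of those most like Mrgpra3, 3 and 1. The difference of Mrgprx3-ps between the sexes stayed between −0.45 and −0.39, with adjusted p up to 0.00361. Counts of 110 to 1185 for Mrgprb5 and 0 to 349 for Mrgprb4 limit the precision of those genes less than the spread between mice did.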
